A study of Drosophila melanogaster with 2 samples.

Results

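The sites described here are peaks of CG32772 binding that lie on the 4 major autosome arms of Drosophila melanogaster (2L, 2R, 3L and 3R), outside every annotated transcript and over 500 bp from every annotated transcription start site (TSS). They were chosen by the position of the summit, the base at which a peak is highest, in the stricter of the lists called from both libraries jointly. The rule kept 629 of the 3702 autosomal peaks, and of the 4699 peaks on all 7 chromosome arms. CG32772, a protein with predicted zinc fingers of the Cys2His2 kind, was mapped as a fusion with the green fluorescent protein eGFP. The assay was ChIP-seq, the sequencing of fragments of sheared chromatin that an antibody recovers, here one against GFP. Whole embryos of the transgenic line, aged 0 to 24 h, gave 2 biological replicates of 1 group, so no treatment or genotype was compared and p-values describe differences between sites. The labels do not give the promoter that drives the fusion, and embryos of all stages and tissues were mixed, so a site bound in few cells cannot be told apart from a site bound weakly in many.

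Intergenic DNA of the fly holds many of its enhancers, which switch genes on in particular cells and stages, and also insulators and Polycomb response elements. The regulators of development are often flanked by long intergenic stretches with several enhancers, whereas housekeeping genes, such as those of the ribosome and of the mitochondrion, tend to be packed close together and to be regulated from their promoters. Zinc fingers of the Cys2His2 kind usually contact a few bases each, so that proteins with several of them can read long sequences.

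The summit sequences of 6 of the strongest sites are shown because most of them hold the recurrent words of the data, runs of A and T. Each is the summit base with 50 bases on either side, read 5′ to 3′ from the RefSeq copy of the dm6 assembly, and capitals mark matches to any of the 10 words of 7 bases that were most in excess at autosomal promoter summits. GC content was lowest in S3 at 24.8%, and S2, which carries none of these words, had 47.5%. S5, with 43.6%, carries none either and is printed in the second set for another word, and S1, S6 and S9 are not printed. Sites are numbered by signal, S1 being the strongest.
S2, chr3R:16222437-16222537, plus strand: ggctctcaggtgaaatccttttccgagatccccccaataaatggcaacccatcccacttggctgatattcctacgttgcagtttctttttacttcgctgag
S3, chr2L:2202356-2202456, plus strand: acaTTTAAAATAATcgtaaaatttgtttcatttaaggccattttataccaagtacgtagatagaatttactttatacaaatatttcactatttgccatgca
S4, chr3L:11010568-11010668, plus strand: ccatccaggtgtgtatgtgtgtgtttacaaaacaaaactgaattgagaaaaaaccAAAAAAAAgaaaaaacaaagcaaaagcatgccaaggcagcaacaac
S7, chr2L:1638723-1638823, plus strand: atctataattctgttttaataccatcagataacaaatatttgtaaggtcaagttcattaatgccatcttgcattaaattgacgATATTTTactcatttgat
S8, chr3L:5976465-5976565, plus strand: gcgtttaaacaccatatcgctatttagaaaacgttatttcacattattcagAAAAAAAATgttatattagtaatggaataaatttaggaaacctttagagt
S10, chr3L:9855916-9856016, plus strand: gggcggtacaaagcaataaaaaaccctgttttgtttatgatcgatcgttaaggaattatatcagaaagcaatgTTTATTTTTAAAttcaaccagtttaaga

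A second set of 8 sites, S5, S33, S48, S74, S84, S97, S99 and S158, is shown because a GC-rich word of the form GNTGGCGC, which resembles the core of the binding site of the insulator protein CTCF, lay within 50 bp of their summits. Capitals mark the word and lower case the bases beside it, on the strand on which it reads in this direction.
S5, chr3R:21520313-21520352, minus strand: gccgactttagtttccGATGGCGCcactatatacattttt
S33, chr3R:14391398-14391437, minus strand: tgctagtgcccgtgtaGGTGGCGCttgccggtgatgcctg
S48, chr2L:9567468-9567507, minus strand: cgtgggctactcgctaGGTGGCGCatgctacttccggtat
S74, chr3R:28672405-28672444, minus strand: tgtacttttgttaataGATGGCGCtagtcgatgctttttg
S84, chr3R:16497507-16497546, minus strand: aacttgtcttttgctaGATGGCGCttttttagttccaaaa
S97, chr2L:3786439-3786478, plus strand: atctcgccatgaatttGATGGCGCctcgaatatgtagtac
S99, chr3L:14111629-14111668, plus strand: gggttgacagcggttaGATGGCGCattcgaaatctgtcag
S158, chr3L:4239608-4239647, minus strand: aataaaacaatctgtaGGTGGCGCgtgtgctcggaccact

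The intergenic class was small for the room it had. It took up 17.0% of the autosomal summits (exact 95% binomial interval 15.8% to 18.2%), against 28.4% of the bases of these arms, a ratio of 0.599. This was not particular to it, since summits in transcripts over 500 bp from a TSS were also few (38.6% against 57.9% of bases, ratio 0.667). Only promoter summits exceeded their room, with 44.4% against 13.8% of bases (ratio 3.22). Intervals for shares of sites cover counting error only, since no read counts were used and the sequencing depth is unknown. Own lists of single libraries gave like intergenic shares, with 359 of 2368 autosomal summits (15.2%) for replicate 1 and 469 of 2765 (17.0%) for replicate 2. The intergenic share was lowest at the top of the joint list, with 8 of the strongest 100 autosomal peaks, 59 of the strongest 500 (11.8%), 136 of the strongest 1000 (13.6%) and 303 of the strongest 2000 (15.2%). The 3 members nearest to the 500 bp limit had summits at 508 bp (S8, near CG10479, signal 708), 515 bp and 516 bp from a TSS, and the 3 peaks just outside the rule had theirs at 492, 484 and 482 bp.

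Fewer intergenic sites than promoter sites reached the thresholded lists of both libraries, and intergenic and intronic sites could not be told apart in this. A site was counted in an own list where it overlapped a peak of that list by 1 bp or more. Of the 629 sites, 281 were in both own lists (44.7%, interval 40.7% to 48.7%), against 50.1% of all autosomal peaks. A further 54 appeared for replicate 1 alone, 96 appeared for replicate 2 alone, and 198 had no own-list support (31.5%). The median signal, the authors' value per peak whose scaling is not stated, was 178 for sites in both lists and 73.2 for sites in neither. Of the 1319 autosomal summits that lay in introns only, 584 (44.3%) were in both lists, and the intergenic share was 0.398 percentage points higher (odds ratio 1.02, 95% interval 0.835 to 1.24, Fisher's exact test, two-sided, adjusted p = 1). Of the 1644 promoter summits, which lie within 500 bp of a TSS, 959 (58.3%) were in both, and the intergenic share was 13.7 points lower (odds ratio 0.577, interval 0.477 to 0.697, Fisher's exact test, adjusted p = 1.3e-08).

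Strength followed the same order. A signal above 115.473, the median of all autosomal peaks of the joint list, was reached by 278 intergenic sites (44.2%), by 583 intronic sites (44.2%) and by 958 promoter sites (58.3%). The odds ratio was 1.00 against intronic sites (interval 0.822 to 1.22, Fisher's exact test, adjusted p = 1) and 0.567 against promoter sites (0.469 to 0.686, adjusted p = 8.3e-09). P-values are from two-sided exact tests and adjusted over these 4 tests by Benjamini and Hochberg. Neighbouring sites can share a peak of an own list, so these tests count some calls more than once, and with summits within 1 kb counted once no call changed.

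The libraries gave most intergenic sites a call each, with different values. The joint list was thresholded on the irreproducible discovery rate, a measure of how well ranks agree between lists, so that likeness of the libraries is in part a condition for being listed. A call of the library's full ranked list, which holds 115982 calls for replicate 1 and 78026 for replicate 2, overlapped 624 of the sites in replicate 1 and 627 in replicate 2. The signal of these calls had a median of 51.4 in replicate 1 (range 29.8 to 849) and 57.0 in replicate 2 (29.8 to 998). Over the 622 sites with a call in both, Spearman's rank correlation was 0.743, a description across sites of the same pair of libraries. Replicate 1 was the higher at 242 of them and replicate 2 at 380. In the joint list the signal ran from 2.70 to 1847 with a median of 106. The 16 weakest members, with values under 20, sat at most 228 bp from a stronger site, and when summits within 1 kb were counted once, 571 sites remained.

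**Figure D1:**
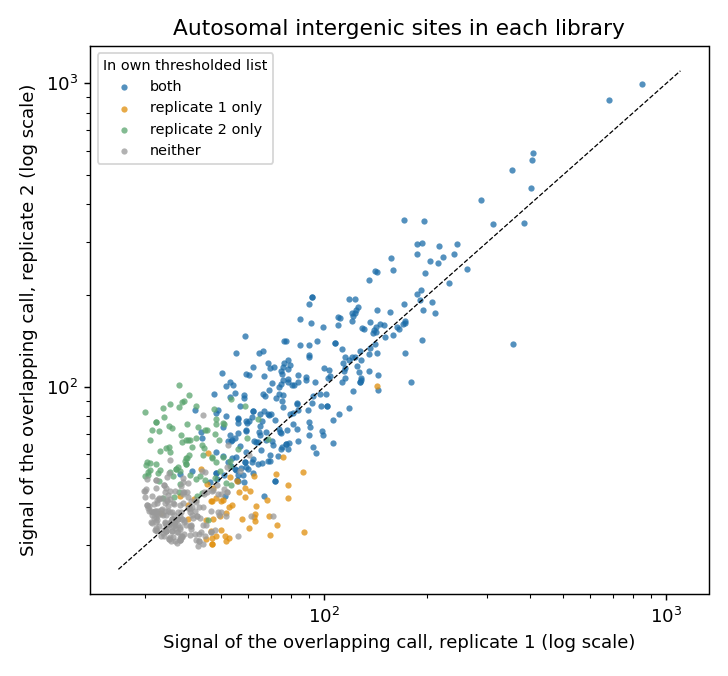
Signal of the own call that overlaps each intergenic site, for replicate 1 (horizontal, log scale) and replicate 2 (vertical, log scale), with 1 point per site for 622 sites; colours give the thresholded lists that hold the site and the dashed line marks equal values. Sites in both lists run up to 849 in replicate 1 and 998 in replicate 2, and sites in neither crowd at the lower left.

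S1, the strongest intergenic site, lay beside a pair of Polycomb group genes on 2R. It covered positions 13035172 to 13035499 with a signal of 849 in replicate 1 (rank 16 of its calls) and 998 in replicate 2 (rank 10), and 1847 in the joint list. Its summit was 27431 bp from Su(z)2, a paralogue of Psc, 9353 bp from CG13323 on the other side, and 11914 bp from the nearest TSS. Su(z)2 and CG13323 both face S1 with their 3' ends. The gap on the other side of Psc, which encodes a subunit of Polycomb repressive complex 1, held 5 more sites between CG13321 and Psc. The strongest of them, S22 (positions 12958089 to 12958334), had a signal of 186 in replicate 1 and 273 in replicate 2. S45 followed with 143 and 180, and S343 and S593 were under 70 in either library. S143 overlapped the same replicate 1 call as S45. The neighbourhood of Psc was singled out after its values were seen.

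S2 lay on 3R between mtSSB, which encodes the single-stranded DNA-binding protein of the mitochondrion, and tara, a cell cycle and sleep regulator. Its signal was 679 in replicate 1 and 880 in replicate 2. The site covered positions 16222337 to 16222658, 908 bp from the nearest TSS and 3164 bp from tara. Both libraries placed it second among the intergenic sites, behind S1. Next came S3 on 2L, 1315 bp from CG31668, with 407 and 590, and S4 on 3L, 1430 bp upstream of klu, which encodes a zinc finger transcription factor of the nervous system, with 406 and 559. In all these sites replicate 2 had the larger value.

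S5 on 3R had 354 in replicate 1 and 519 in replicate 2, and lay between C15, a homeobox gene of the distal leg, and sp3, 572 bp from sp3. S6 on 2R, between blw, which encodes the alpha subunit of the ATP synthase, and CycB, which encodes Cyclin B, had 402 and 451. The gap between RFeSP, the Rieske iron-sulphur subunit of respiratory complex III, and chinmo, a regulator of neuronal identity over time, held 2 of the 15 strongest sites. S7 had 385 in replicate 1 and 346 in replicate 2. S14, also in this gap, had 357 in replicate 1 and 139 in replicate 2. S14 had the largest difference in rank among these 15, at rank 114 in replicate 1 and rank 748 in replicate 2.

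The rest of the 15 strongest ranked lower. S8 (CG10479 and PVRAP, an adaptor of a receptor tyrosine kinase) had 288 in replicate 1 and 412 in replicate 2. S9, 3385 bp from foxo, the forkhead transcription factor of the insulin pathway, had 311 and 344. S10 (RasGAP1, which encodes a GTPase-activating protein of Ras, and CG10809) had 196 and 353. S11 (CG43131 and RabGGTa), S12 (CG13970 and CG10651), S13 (hng3 and CG13898) and S15 (CG43245 and CG12523) had between 171 and 262 in replicate 1 and between 245 and 355 in replicate 2. All 15 were in both own lists, at ranks 11 to 216 of the joint list, 16 to 444 of replicate 1 and 10 to 748 of replicate 2.

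The sites leaned towards genes. The median distance to a TSS was 3163 bp, against 5955 bp for all autosomal intergenic bases over 500 bp from a TSS, and 3043 and 2881 bp for the own lists of replicates 1 and 2. Between 0.5 and 1 kb lay 15.1% of the sites and 7.70% of the bases, and between 1 and 2 kb lay 20.03% of the sites and 12.4% of the bases. Over 20 kb from any TSS lay 29 sites (4.61%, interval 3.11% to 6.55%), against 22.1% of the bases. The rule itself sets the lower end of these distances, and no test was made. All bases were counted, also those of repeats in which reads may not be placed.

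Among the 29 far sites, those with the largest signal were S37, in the gap between NijA and CG43245 (163 in replicate 1 and 158 in replicate 2, 32035 bp from a TSS), and S65, next to vvl, the gene of a POU-domain transcription factor of the trachea (111 and 169, 33815 bp). Of these 29, the farthest was S355 on 3R, which lay 426616 bp from the TSS of Myo81F, in the stretch before the first gene of the arm, and all of its summit window is soft-masked in the reference.

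**Figure D2:**
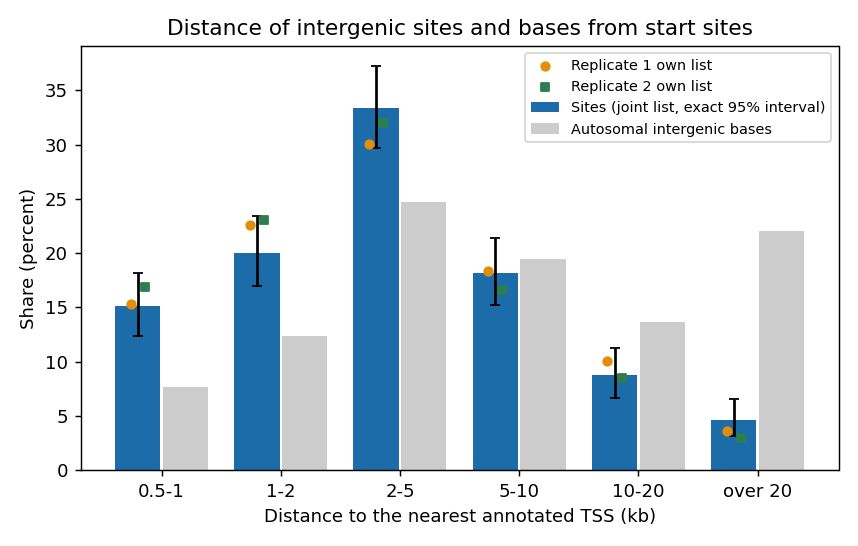
Share of intergenic sites (blue bars, joint list, exact 95% binomial intervals) and of autosomal intergenic bases (grey bars) by distance to the nearest annotated TSS in kb; circles and squares give the own lists of replicates 1 and 2. Sites exceed bases up to 5 kb and fall below them beyond 10 kb, also in both own lists.

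Divergent gene pairs flanked more of the sites than of the bases. The protein-coding genes on both sides pointed away from 185 sites (29.4%, interval 25.9% to 33.1%), against 23.1% of the bases, and own lists gave 31.8% and 31.98%. Tandem genes flanked 310 sites (49.3% against 49.8% of bases) and convergent genes 131 (20.8% against 22.98%), and 3 sites lay between an arm end and its first gene. Of the sites, 384 (61.0%, against 59.4% of the bases) were upstream of the nearest protein-coding TSS. By kind, the gene with the nearest TSS was protein-coding at 419 sites (66.6% against 67.0% of bases), a non-coding RNA gene at 190 (30.2% against 26.2%), a tRNA gene at 17 (2.70% against 0.871%) and a pseudogene at 3 (0.477% against 5.64%). Of the tRNA cases, 6 came from the single gap between hng3 and CG13898.

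The maternal, segment polarity and signalling lists flanked larger shares of sites than of intergenic bases, with intervals above the bases. The ribosomal protein list flanked a smaller share, and the homeotic and proneural lists about the same share. In the remaining lists, that of mesoderm, gut and trachea among them, the interval held the share of bases. A site was counted for a list where the protein-coding gene on either side belonged to it, and no test was made of any list. The intervals treat sites as independent, although neighbouring sites can share a gap and 1 gene can supply several. Of the 15 maternal sites, for example, ems flanked 5 and drm 5, so the intervals are likely too narrow. Maternal, gap and pair-rule genes flanked 15 sites (2.38%, interval 1.34% to 3.90%) and 1.19% of the bases, and 8 of the 18 listed autosomal genes flanked a site. Genes of segment polarity and limb patterning flanked 20 sites (3.18%, 1.95% to 4.87%) and 1.71% of the bases, with 9 of 18 genes. Signalling ligands, receptors and inhibitors flanked 18 sites (2.86%, 1.70% to 4.49%) and 1.51% of the bases, with 13 of 29 genes. Over all intergenic sites 44.7% were in both own lists, and over all autosomal peaks 50.1%. The maternal list had 5 of its 15 sites in both, the segment polarity list 9 of 20 and the signalling list 7 of 18. The own list of replicate 1 gave these lists 1.95%, 3.34% and 3.06% of its intergenic summits, and that of replicate 2 gave them 2.99%, 4.26% and 2.13%. By comparison, 696 of the 11669 protein-coding genes of these arms (5.96%) flanked a site, without regard to the length of their gaps.

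Among the maternal, gap and pair-rule genes, S24 stood highest, between slp1 and slp2, the paired forkhead genes of segmentation, with 197 in replicate 1 and 236 in replicate 2. The head gap gene ems had 5 flanking sites, the strongest of which, S88, had 128 and 105. The zinc finger gene drm, which the list counts although its place there was not checked, also had 5, led by S103 with 79.5 and 118. The share of this list without drm was not computed, so its excess over the bases may rest on drm. For S88 the larger value was that of replicate 1, and for S24 and S103 that of replicate 2.

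Of the segment polarity and limb genes, C15 had 3 flanking sites, S5 among them. S51 lay 5274 bp from ptc, the gene of the Hedgehog receptor, with 149 in replicate 1 and 160 in replicate 2. The T-box gene mid had 5 sites, led by S57 with 123 and 175. The Wnt ligand gene wg had 4, led by S98, which it shares with its neighbour Wnt4, with 90.4 and 127.

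Signalling genes beyond wg and Wnt4 included vn, which encodes a neuregulin-like ligand of the EGF receptor, and the paired FGF genes pyr and ths. S110, 24140 bp from vn, had 121 in replicate 1 and 96.8 in replicate 2. S179, between pyr and ths, had 54.7 and 95.3. In the joint list both ranked below S24, S88, S103 and S98.

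Transcription factor genes of mesoderm, gut and trachea flanked 17 sites (2.70%, interval 1.58% to 4.29%) and 1.74% of the bases, with 8 of 28 genes. Of these 17 sites 13 were in both own lists, against 44.7% of all intergenic sites. The own lists of replicates 1 and 2 each gave this list 3.62% of their intergenic summits. S44, in the gap of the T-box genes Doc2 and Doc1, had 166 in replicate 1 and 154 in replicate 2, and these genes had 4 sites each. The tracheal gene vvl had 4 as well, led by S65. S77, 1645 bp from zfh1, had 84.8 and 168. Homeotic genes flanked 3 sites (0.477%, interval 0.0985% to 1.39%) and 0.450% of the bases, with 3 of 8 genes. S41, 8314 bp from abd-A, had 156 in replicate 1 and 177 in replicate 2, and S280, between Dfd and Scr, had 50.8 and 51.1.

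In the other lists each interval held the share of bases. The ratio of the share of sites to that of bases ran from 0.947 for the chemosensory list to 1.64 for the nuclear receptor list. The latter rests on 3 sites, so its interval is wide. Proneural and neural fate genes flanked 8 sites (1.27% against 1.30% of bases), led by S118 next to SoxN (84.0 and 104 in replicates 1 and 2), S151 next to nerfin-1 (83.1 and 88.4), S175 next to Dr and S328 next to Dichaete (D). Nuclear receptor and ecdysone response genes flanked 3 (0.477% against 0.291%), namely Eip75B with S54 (131 and 155), Hr51 with S62 (129 and 156) and E23 with S573. Axon guidance and cell adhesion genes flanked 20 (3.18% against 2.70%), among them unc-5, which shares S62, the Toll family gene 18w with 5 sites, the E-cadherin gene shg and caps. Chemosensory receptor and odorant-binding protein genes flanked 24 (3.82% against 4.03%), of which Gr93a had 6, and Gr89a, Obp56i and Obp56g had 2 each. Cuticle protein genes flanked 7 (1.11% against 0.827%), led by S31 next to Cpr76Ba (142 and 238), with S193 between Cpr65Eb and Cpr65Ec and S374 next to Cpr49Ae.

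Cytosolic ribosomal protein genes flanked 2 sites (0.318%, interval 0.0385% to 1.14%), against 1.85% of the bases, and 2 of 77 genes did so. They were S338, 730 bp from RpLP0 with 60.9 in replicate 1 and 37.5 in replicate 2, and S371, 141576 bp from RpL5 with 40.5 and 38.5. Neither site was in an own list. Replicate 1 had 1 such summit in its own list and replicate 2 had 0. The long gap of S371, which ends 21907 bp away at Marf1 on the other side, counts towards the 571 kb flanked by this list. Gaps over 50 kb held 5.81 sites per Mb over all genes, and the shares were not adjusted for gap length.

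**Figure D3:**
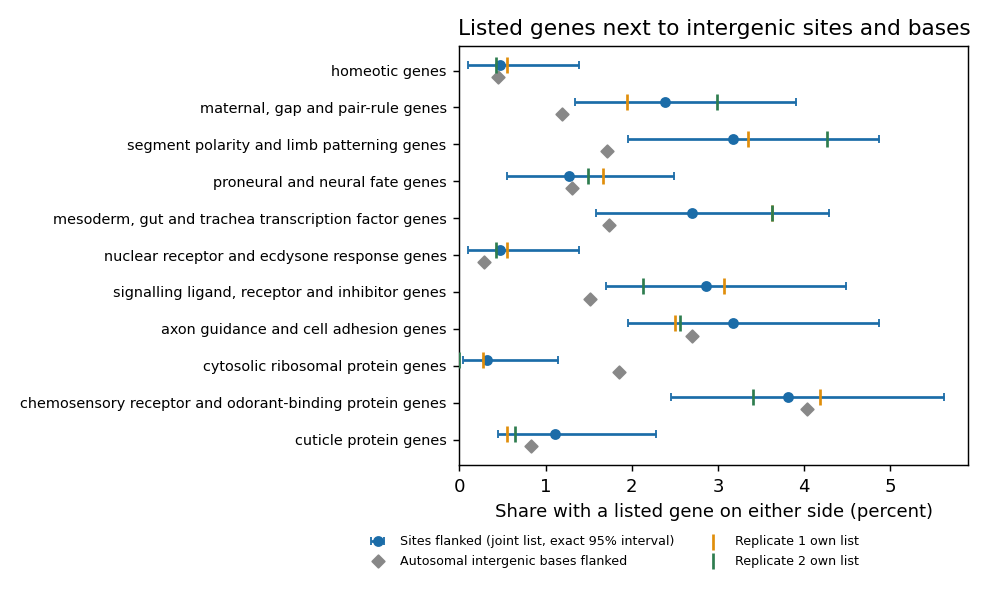
Percent of intergenic sites with a listed protein-coding gene on either side (blue points, joint list, exact 95% binomial intervals), with the own lists of replicate 1 (orange ticks) and replicate 2 (green ticks), and percent of autosomal intergenic bases so flanked (grey diamonds). The points of the maternal, segment polarity and signalling lists lie above their diamonds and that of the ribosomal protein list lies below.

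Sites came in clusters within single gaps between genes. Of the 4561 gaps with intergenic sequence, 381 held a site, 130 held 2 or more, and these 130 held 378 of the 629 sites. Another site of the class lay within 1 kb of 119 sites (18.9%) and within 5 kb of 279 (44.4%), and the median distance to it was 6909 bp. The share within 5 kb was 33.1% with summits within 1 kb counted once, 27.3% in the upper 50% of the list by signal, and 37.0% and 37.1% in the own lists of replicates 1 and 2. To the nearest autosomal site of another class the median was 15895 bp. The rule itself keeps those classes apart from the members, in transcripts or within 500 bp of a TSS, so this distance says little about clustering. No spacing expected for sites scattered over the intergenic sequence was computed. Density was 38.7 sites per Mb of intergenic sequence in gaps of up to 2 kb and 37.4 in gaps of 2 to 5 kb. It lay between 23.8 and 25.8 in gaps of 5 to 50 kb, and was 5.81 in gaps over 50 kb.

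Each of the 6 gaps with the most sites was on 3L, the arm with 34.0% of the sites and 29.4% of the intergenic bases. The gap of 48.5 kb between CG7320 and CheA75a, which encodes a chemosensory protein, held 13, with 5 summits in the own list of replicate 1 and 11 in that of replicate 2. Its strongest site, S30, had 191 in replicate 1 and 193 in replicate 2. The gap of 21.1 kb between Ids, which encodes a lysosomal sulphatase, and sty, which encodes Sprouty, an inhibitor of receptor tyrosine kinase signalling, held 10. Its strongest site, S43, had 187 in replicate 1 and 202 in replicate 2, followed in the order of joint-list signal by S64 with 110 and 169, S85 with 103 and 113, and S102 with 118 and 194. The summits of S102, S43 and S64, at positions 3394608, 3395039 and 3396271, lay closer to each other than to S85 at 3382621.

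The gap of 47.9 kb between hng3 and CG13898 held 9 sites, with 7 summits in the own list of replicate 1 and 9 in that of replicate 2. S13, in its middle, had 262 in replicate 1 and 245 in replicate 2, and S27, 524 bp from CG13898, had 206 and 190. The gap between CG44362 and CG7560 held 8, with 7 and 8 own summits. S17 led there with 245 and 294, and S38, S36 and S70 followed with 193, 173 and 110 in replicate 1 and 143, 165 and 159 in replicate 2. The gap between CG6168 and CG6163 also held 9, but its strongest, S133, had 78.3 in replicate 1 and 114 in replicate 2, and own lists had 3 and 4 summits there. Between NijA, which encodes the cell-surface protein Ninjurin A, and CG43245 lay 8, led by S37 and by S39 (172 and 163). In 4 of these 6 gaps, those of CG7320, Ids, CG6168 and NijA, a pair of neighbouring sites shared a call of an own library, so their counts read some calls more than once.

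**Figure D4:**
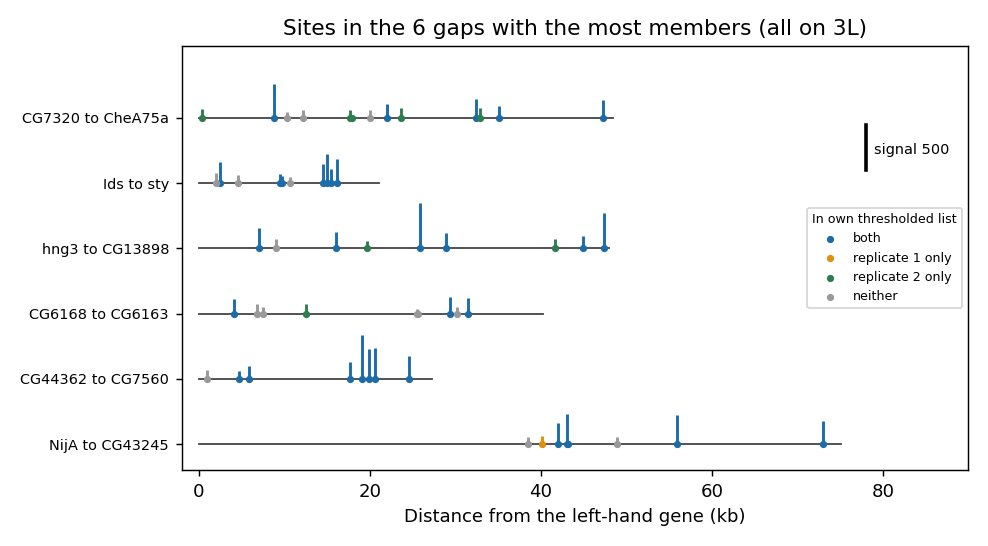
Position of every intergenic site in the 6 gaps with the most sites, in kb from the edge of the left-hand gene; each horizontal line is a gap, each dot a summit, the height of each bar is its joint-list signal (black bar, 500) and the colour gives the thresholded lists that hold it. The gap between Ids and sty has 10 sites over 21.1 kb, whereas that between NijA and CG43245 has 8 over 75.05 kb, all on the right of its middle.

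Counted in windows of 200 kb, chosen after the data were seen, 296 of 547 windows held no site and the 10 fullest held 134 (21.3%) on 3.35% of the intergenic sequence. Own lists put 24.2% (replicate 1) and 23.5% (replicate 2) of their intergenic summits into the same windows. Of these 10 windows, 7 were on 3L, and the fullest, positions 11200001 to 11400000, held 26 sites and 15 peaks of other classes. A window of 2L (14400001 to 14600000), around the zinc finger gene noc, held 15 sites with 1 peak of another class. S79, left of noc, had 121 in replicate 1 and 126 in replicate 2, and S47, right of it, had 159 and 148. Per Mb of intergenic sequence the arms held 22.6 sites (2L), 14.4 (2R), 23.6 (3L) and 20.3 (3R), and 2R was also the lowest in both own lists.

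The summits sat in narrow dips of GC content. The median GC content of the summit window, 50 bp on either side, was 34.7%, against 41.6% in the windows 500 bp to either side and 41.6% over 302041 windows that tile autosomal intergenic sequence. Own lists gave 33.7% (replicate 1) and 32.7% (replicate 2). Intronic summits had 33.7% with flanks of 41.6%, and promoter summits 33.7% with flanks of 46.5%. The dip was thus about as low in each class, and only the promoter flanks differed from the intergenic ones. In 51 bp windows the mean at intergenic sites was 35.3% at the summit and 45.2% and 45.4% at 250 bp to the left and 200 bp to the right, above the 41.5% and 41.2% found 1 kb away on the left and right. Intronic sites had like shoulders, of 44.3% at 200 bp to the left and 44.5% at 250 bp to the right, above 40.6% at 1 kb. Few summits lay in mobile elements. Annotated transposable elements, with the 500 bp beside their start, held 11 summits (1.75%, interval 0.876% to 3.11%) against 13.1% of the bases, and 147 summit bases (23.4%) were soft-masked against 26.5% of the bases. The bases include repeats to which reads may not be assignable, and whether this lowers the share of summits was not tested.

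**Figure D5:**
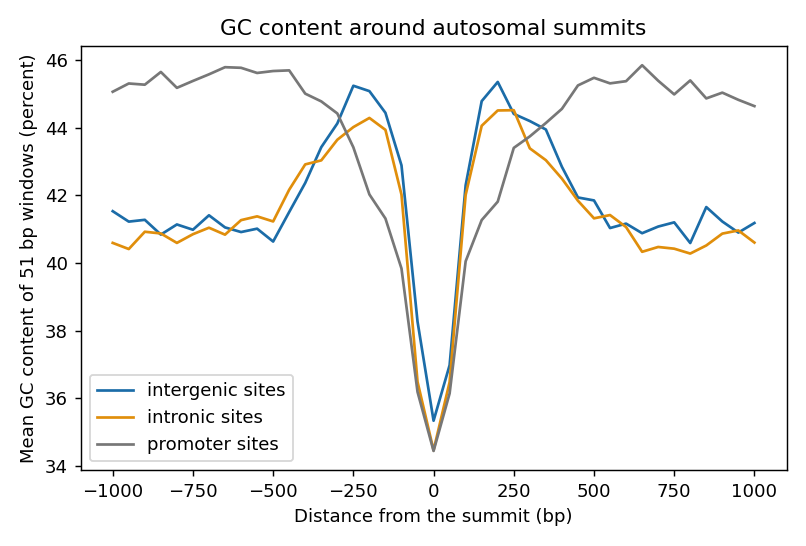
Mean GC content in percent of 51 bp windows, every 50 bp from 1 kb left to 1 kb right of the summit, for autosomal intergenic (blue), intronic (orange) and promoter (grey) sites. All classes dip to 34.4% to 35.3% at the summit. Intergenic sites pass through shoulders of 45.2% on the left and 45.4% on the right before levelling off, and intronic sites through shoulders of 44.3% and 44.5%.

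Words of A and T recurred at the summits, as in the sequences of S3, S4, S8 and S10 above. Motifs were read on both strands of the summit window and of the window 500 bp to its right, and the exact McNemar test was two-sided and adjusted over 26 motifs. These were 16 named ones and the 10 words of A and T chosen at promoter summits, which are no members. AAAAAAT was found at 108 summits (17.2%), 47 flanks (7.47%) and in 9.91% of all intergenic windows (exact McNemar test, adjusted p = 1.4e-05). AAAAATA was found at 98 summits (15.6%), 51 flanks (8.11%) and in 9.83% of windows (exact McNemar test, adjusted p = 0.000413), and AAAAAAA at 108 (17.2%), 62 (9.86%) and in 8.89% (adjusted p = 0.00186). In all, 9 of the 10 words were more frequent at the summit than at this flank, and AAATAAT was not called (8.27% at summits against 6.84% at flanks, exact McNemar test, adjusted p = 0.658). Of the 9, AAAAATT was at 7.79% of summits, no more than the 8.20% of all intergenic windows. With the flank on the left AAAAATT had a difference of 0 points and lost its call. TTTAAAA also lost its call there (exact McNemar test, adjusted p = 0.157). The 10 overlap each other in sequence, and whether they exceed what the lower GC content of the summits gives was not tested.

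No named motif was called in excess at the summits. GAGAG, the motif of the GAGA factor, was less frequent at them (58 summits, 9.22%, and 87 flanks, 13.8%, exact McNemar test, adjusted p = 0.0311), and so was the repeat CACACA (6.84% and 10.8%, adjusted p = 0.0416). Both calls were lost with the flank on the left (exact McNemar test, adjusted p = 0.407 and 0.616). In the own list of replicate 1 the adjusted p was 0.501 for GAGAG and 0.171 for CACACA by the exact McNemar test, and in that of replicate 2 it was 0.446 and 0.0543. Of the 26 motifs 11 were called in the joint list, 7 in the own list of replicate 1 and 9 in that of replicate 2. CAGGTA, bound by the early activator Zelda, was at 11 summits and 11 flanks, and GCCAT, the core of the motif of the Polycomb recruiter Pleiohomeotic, at 92 summits (14.6%) and 107 flanks (17.0%, exact McNemar test, adjusted p = 0.546). Of all intergenic windows, 11.1% held GAGAG, 7.98% CACACA, 2.12% CAGGTA and 19.7% GCCAT.

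Against intronic summits no motif of the 26 was called (Fisher's exact test, adjusted over the same 26; 2 had an unadjusted p under 0.05, AAAAAAA with 17.2% at intergenic and 22.1% at intronic sites, and AAAAATT with 7.79% and 11.3%). Against promoter summits 4 of the 16 named motifs were called, with p adjusted over all 26, and each was less frequent at the intergenic sites. TATCGATA, the site of the promoter factor DREF, was at 1 intergenic summit (0.159%) and 2.68% of promoter summits (Fisher's exact test, adjusted p = 7.7e-05). CGATA, the core of the motif of the insulator protein BEAF-32, was at 10.2% of intergenic and 17.9% of promoter summits (exact test, adjusted p = 7.7e-05), and TATCGATA contains it. GGTCACACT, known as motif 1 of core promoters, was at 0.318% of intergenic and 1.76% of promoter summits (exact test, adjusted p = 0.0233), and the homeodomain word TAATTA at 6.52% and 10.8% (adjusted p = 0.00634). Of all intergenic windows, 0.198% held TATCGATA, 10.4% CGATA, 0.0427% GGTCACACT and 7.45% TAATTA. The rule keeps the members over 500 bp from every TSS, whereas promoter summits lie within that distance. A word usual near start sites can therefore be rarer at members whether or not sites are bound. Promoters without a peak were not examined, so these calls cannot separate binding from position. The words of A and T were chosen for their excess at these same promoter summits, which favours a higher share there, so they are given with no test, as for AAAAATT with 7.79% at intergenic and 14.7% at promoter summits.

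The word GNTGGCGC, with A or G as its second base, marked a small and comparatively strong set of sites. It was singled out after the data were seen, so it has no test. It lay in 14 summit windows (2.23%, interval 1.22% to 3.71%), 7 windows to the right, 3 to the left and 0.360% of all intergenic windows. The own list of replicate 1 had it at 9 summits (2.51%) and 6 windows to the right (1.67%), and that of replicate 2 at 15 summits (3.20%) and 5 windows to the right (1.07%). It was also at 1.75% of the autosomal summits in transcripts and 1.22% of those at promoters. Of the strongest 100 intergenic sites 8 had it, against 3 of the next 200 and 3 of the last 329. Sites with it had a median joint-list signal of 220, against 105 for the other 615, and 10 of the 14 were in both own lists (71.4%), against 271 of the others (44.1%). Their summit windows were less poor in GC, with a median of 44.1% against 33.7%.

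These 14 sites lay near genes of several kinds. S5, described above, was the strongest. S33, between soti and cv-c, had 195 in replicate 1 and 179 in replicate 2. S32 lay 651 bp from CG14762, in the gap it shares with the eye homeobox gene Optix, with 140 and 240. S48, between jp and brwl, had 124 and 179, and S74, between Sid and snu, had 142 and 129. S84 (Cad89D and the gustatory receptor gene Gr89a) had 114.96 and 126, and S99, between Sox21a and Sox21b, paired genes of Sox transcription factors, had 113 and 119. S572, next to Reg-2, was in neither own list, with 32.02 and 39.1. The centre of the word was a median of 24.5 bp from the summit, and 5 of the 14 lay within 20 bp. Since the word was sought only up to 50 bp away, these distances show no crowding at the summit itself. In the sequences printed above the base before the word was A in all but S5 and S97. Over all 14, A stood there in 85.7% and T in 78.6% of the place before that.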

How the data were processed

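ChIP-seq peak lists of 2 replicate libraries of CG32772-eGFP embryos were analysed. Per the file descriptions deposited with the libraries, peaks were derived on dm6 from alignments of ChIP and control DNA; the names of the aligner and the peak caller were not given in the sources used here. Signal per peak, as the authors deposited it, was used to rank peaks within a list, and their deposited rank score (830 or more in the thresholded lists) and -log10 q-value were not tested again. No reads or counts were used, so the depth is unknown.

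The main list was the stricter joint thresholded list. Gene models were those of Ensembl release 115 (BDGP6.54), transposable elements left out, and sequences were read from RefSeq's dm6. Of 599 listed gene symbols, 562 matched a protein-coding gene of the 4 arms. Classes were compared by Fisher's exact test and summits with their own flanks by the exact McNemar test, with Benjamini-Hochberg adjustment within the 4 tests of support and strength and within the 26 motifs; these tests were tested on simulated data with planted differences. Position, neighbours, clustering, GC content and gene lists are described without a test, with exact 95% binomial intervals. Python 3.11.15, numpy 2.4.6, scipy 1.17.1, pandas 2.3.3 and matplotlib 3.10.9 were used.

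The members, gene lists and motifs were chosen with earlier results of these data known. Named by rule were the flanking genes of the 15 strongest members in both own lists and of the 6 gaps with the most members, up to 4 genes per list, and 3 peaks on either side of the distance limit. Named after their values were seen were the sites around Psc and noc, the sites over 20 kb from a TSS, the word GNTGGCGC with its sites, and the genes of the closing observations. As alternatives, the second joint list, the own list of either library, summits within 1 kb counted once, the upper 50% by signal, a limit of 1000 bp, transposable elements counted as transcripts, an overlap of 50% of each peak, windows of 201 bp, the left flank and, added after the data were seen, peaks with a signal under 20 left out were tried.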

Additional observations from a re-analysis of the deposited data

How the results depend on the processing

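No paired analysis was possible because the libraries form 1 group. Of 70 recomputed values of the main results, 62 were counted as unchanged. Among them were all 4 tests of support and strength under every alternative tried for them. A test was so counted where it stayed on its side of the threshold, whatever the size of its difference. Against promoter sites the direction held throughout. Against intronic sites, uncalled in every setting, it did not. Support went from 0.398 to -0.723 points with summits within 1 kb counted once, and strength from -0.00301 to 3.56 points with replicate 2 alone. The 11 motifs called at summits became 7 with the flank on the left, and 7 to 9 with the list of 1 library alone. The intergenic share of 17.0% became 14.4% with a limit of 1000 bp and 15.02% in the upper 50% by signal, and was 15.2% to 17.0% with the list of 1 library alone. The median distance to a TSS of 3163 bp became 3831.5 bp with the limit of 1000 bp, which removes the nearest sites, and 2496 bp in the upper 50% by signal, and was 2881 to 3043 bp with 1 library alone. Where no construction explains a change, its cause was not tested. Of 110 recomputed differences of single motifs, 90 kept their call, 20 lost it and 0 reversed; GAGAG and CACACA were lost in the own list of either library. The number of libraries limits all of this, since support cannot exceed 2 lists, and differences in depth between the libraries are unknown.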

Other observations

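Among the 190 sites whose nearest gene was a non-coding RNA gene, 186 were next to a long non-coding RNA gene, 2 next to an antisense RNA gene and 0 next to a microRNA gene. Of the 186, 85 were in both own lists. The 17 sites nearest to a tRNA gene lay 573 to 13993 bp from its TSS (median 3440 bp), and 10 of them were in both own lists. Over all intergenic sites 44.7% were in both own lists, and over all autosomal peaks 50.1%. No difference of these RNA gene counts from those shares was tested.

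The 10 words of 7 bases most in excess at the intergenic summits themselves, given without a test since the sites chose them, shared 6 words with the promoter summits. Of the other 4, AATTTAA was at 66 summits (10.5%) and 30 flanks (4.77%). ATATAAT was at 52 summits (8.27%), 17 flanks (2.70%), 6.87% of promoter summits, 7.66% of intronic summits and 3.79% of all intergenic windows. GAAAAAA was at 78 summits (12.4%) and 43 flanks (6.84%), with 11.9% at promoter summits. TAAAAAA was at 79 summits (12.6%) and 45 flanks (7.15%), with 16.4% at promoter summits.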
